A study of Rattus norvegicus with 18 samples.

Results

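The comparison described here sets rats that were given a starch colloid after blood loss against rats that lost the same blood and were given no fluid. HAES is hydroxyethyl starch, a plasma expander made of large sugar polymers that hold water in the vessels and carry no oxygen. The labels assign 3 arrays to the HAES group and 3 to the bleeding group, which make 6 of the 18 arrays of the series. Liver RNA of each rat was hybridised to 1 array of the type GeneChip Rat Gene 2.0 ST, with 3 rats per group. All rats were adult male Sprague-Dawley rats. Both groups had 50% partial hepatectomy (PHx), in which part of the liver is cut away and the remnant grows back, and were bled of 3 ml through a cannula in the femoral artery, and the liver was taken on day 1. The HAES rats differed from the bleeding rats in the 10% HAES that followed the bleeding. Of the other groups, PHx rats had 50% PHx without bleeding, naive rats had neither, and F-RBC and S-RBC rats had the same PHx and bleeding followed by fresh red blood cells or by red blood cells stored for 7 days. The F-RBC, S-RBC and HAES groups are called the fluid groups below. The experimental groups listed in the study include neither the bleeding nor the HAES rats, so volume and timing of the starch are not known here. For rats with PHx and bleeding without resuscitation, the study refers to earlier work of its authors. No group received an infusion without PHx and bleeding.

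After a partial hepatectomy the hepatocytes of the remnant keep up their metabolic work while they enter the cell cycle. Fat delivered to the liver is burned in mitochondria and peroxisomes, largely under the nuclear receptor PPARα, while bile acids are sensed by the nuclear receptor FXR. Secreted plasma proteins are folded in the endoplasmic reticulum by chaperones, whose genes are driven by the unfolded protein response when the load rises. Blood loss lowers oxygen delivery, and inflammatory signals reach the liver through NF-κB and STAT3.

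Levels are given as log2(intensity + 16), and a difference of 1 on this scale is a doubling of intensity + 16. The median intensity of an array lay between 16.8 and 23.02 in the HAES group and between 19.7 and 21.4 in the bleeding group. On the log2 scale the medians of the HAES and bleeding arrays did not differ by an exact two-sided permutation test (p = 0.7, where 3 against 3 arrays can give no p under 0.1). Albumin (Alb) and transthyretin (Ttr), defining products of hepatocytes, were among the brightest genes in both groups (mean levels of Alb 12.87 in HAES and 12.91 in bleeding rats). The 11 hepatocyte markers measured summed to an intensity of 34421 to 39664 in HAES and of 34977 to 37243 in bleeding rats, and none of them passed the test. Over all probe sets 1 HAES array was nearest to an F-RBC array and the other 2 to the same S-RBC array. Every bleeding array was nearest to another bleeding array. The mean distance between arrays on the log2 scale was 75.5 within HAES, 56.5 within bleeding and 81.1 between these groups.

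Livers of HAES rats had more signal for some genes of fatty acid oxidation, bile acid handling and drug metabolism than unresuscitated livers, and less signal for some chaperones of the endoplasmic reticulum, heme oxygenase and the NF-κB partner Bcl3. By limma's moderated test, 663 of 36685 probe sets had an adjusted p under 0.05 (1.81%), of which 421 were higher and 242 lower in HAES rats, so that 63.5% were higher. The count was 1226 after quantile normalization, 338 in a fit of the HAES and bleeding arrays alone and 1 by the methods' t-test after adjustment. With every array centred on its own median 76.8% of the calls were higher. Before adjustment 5324 probe sets had a p under 0.05. A gene is said to have risen or fallen only where its adjusted p was under 0.05. Counted once per gene, by the brightest probe set, 169 of 18166 genes rose (0.93%) and 98 fell (0.539%). These shares belong beside every count below of list members that rose or fell against bleeding rats. The median difference over all probe sets was −0.013. In 21.9% of all probe sets the 3 HAES arrays lay apart from the 3 bleeding arrays without overlap, which includes all but 1 of the 663. Of the 663, 374 carry no gene symbol and are not described further. P-values here rest on a spread within groups that was estimated over all 18 rats of the series, not over the HAES and bleeding rats alone. In whole liver fewer cells of a type and less RNA per cell cannot be told apart.

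**Figure D1:**
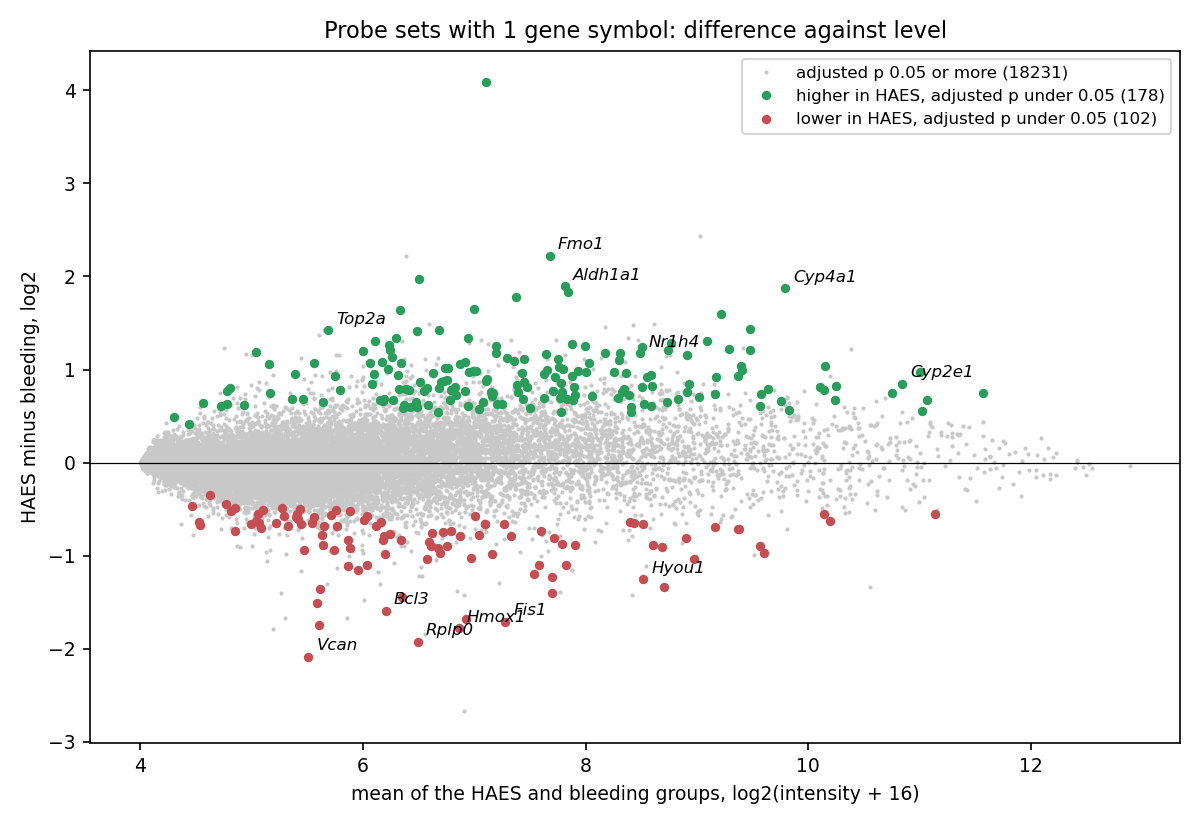
Difference between HAES and bleeding rats (log2, vertical) against the mean level of both groups (log2(intensity + 16), horizontal) for 18511 probe sets with 1 gene symbol. The 178 that rose and the 102 that fell are coloured, and the single point near the top is Or8h7b, at 4.09.

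Many of these calls were lost when any 1 array was left out. Of the 663, 412 stayed past the threshold without HAES replicate 1 and 114 without bleeding replicate 3, the most and the fewest. Counting new calls too, the total of 663 became 640, 269 and 212 with HAES replicate 1, 2 or 3 left out. It became 284, 251 and 119 with bleeding replicate 1, 2 or 3 left out. All 663 differences kept their sign in each of these fits. For all but 1 of them the lack of overlap between the groups fixed this in advance. Of the 71 genes named in this comparison that rose or fell, 10 stayed past the threshold whichever array was left out, namely Fmo1, Cyp4a1, Nr1h4, Ppif, Rplp0, Rps19l3, Fis1, Entpd7, Asb16 and Or8h7b. For the other genes the number of these 6 fits that kept the call is given below. These fits still took their spread from all groups of the series. In a fit of the HAES and bleeding arrays alone 31 of the 71 genes passed. Of the 10 genes just listed Rplp0 and Or8h7b did not pass there (adjusted p = 0.0658 and 0.0625). The 9 arrays of the fluid groups lay entirely on 1 side of the other 9 arrays in 269 probe sets, and 164 of the 663 calls were among them. For those probe sets an effect of receiving any fluid and anything else that set these 9 rats or arrays apart cannot be told apart.

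Among the genes with the smallest p was Fmo1, which encodes a flavin monooxygenase that oxidises nitrogen and sulphur in drugs and nutrients. Its levels were 6.66, 6.61 and 6.43 in the bleeding rats and 8.76, 8.94 and 8.67 in the HAES rats. All HAES arrays lay more than 2 log2 units above all bleeding arrays. The difference was 2.22 ± 0.27 (SE, adjusted p = 0.00396), a 4.67-fold rise, and it stayed between 2.15 and 2.29 with any of the 6 arrays left out. PHx rats without bleeding had 7.60, 7.71 and 7.94, and naive rats 8.71, 9.72 and 9.50, so the HAES levels lay above those of PHx rats and at the low end of those of naive rats.

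**Figure D2:**
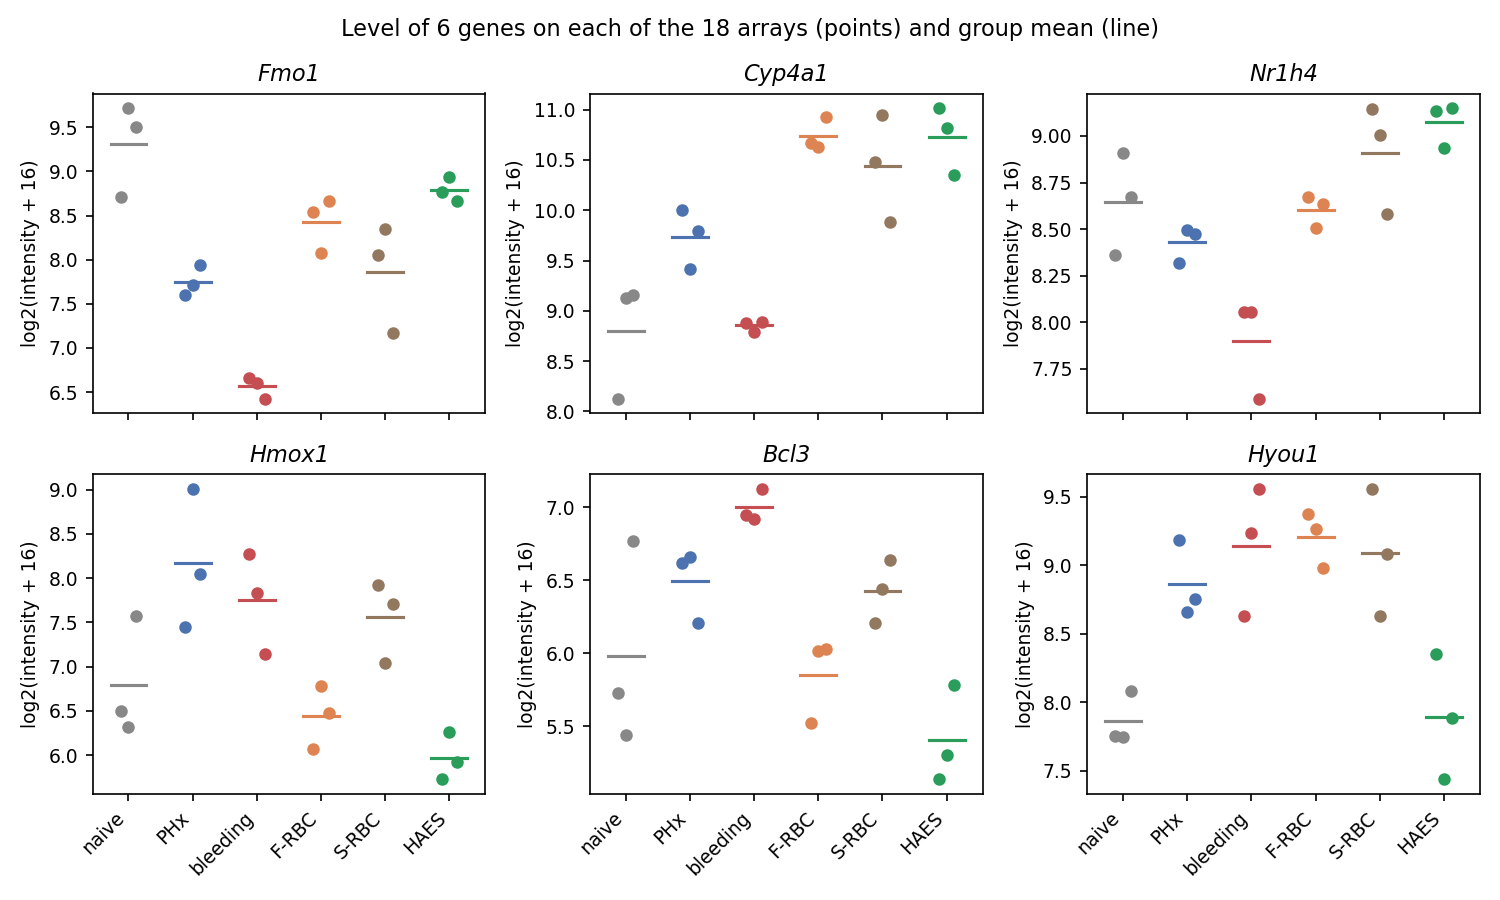
Levels of 6 genes (log2(intensity + 16), vertical) on each of the 18 arrays by group, with points for arrays and lines for group means. Fmo1, Cyp4a1 and Nr1h4 were higher on all 3 HAES arrays than on all 3 bleeding arrays, and Hmox1, Bcl3 and Hyou1 were lower.

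Genes of fatty acid oxidation and ketone making were mostly higher in HAES rats. Of 22 members measured, 21 were higher, 5 rose and 0 fell, and their median difference was 0.52, against 0.93% of all genes that rose. Cyp4a1, which hydroxylates the far end of fatty acids and is a classic PPARα target in rodents, stood at 8.88, 8.79 and 8.89 in bleeding rats and at 11.02, 10.82 and 10.35 in HAES rats. The groups were well apart, and the difference was 1.87 ± 0.28 (SE, adjusted p = 0.00408). Vnn1, a pantetheinase that frees the vitamin part of coenzyme A, had 6.02, 6.49 and 6.0 in bleeding and 8.48, 7.93 and 7.06 in HAES rats (difference 1.65, adjusted p = 0.0201), with the first HAES rat highest. Ehhadh, the bifunctional enzyme of peroxisomal oxidation, had 8.34, 7.98 and 7.32 against 9.40, 8.91 and 9.07 (1.24, adjusted p = 0.0436). The third bleeding rat was the lowest of the 6 for this gene.

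The other members that rose act in mitochondria. Bdh1, which makes the ketone body 3-hydroxybutyrate, stood at 9.09, 8.74 and 8.79 in bleeding rats and at 9.92, 9.63 and 10.18 in HAES rats (1.04, adjusted p = 0.0367). Hadhb, a subunit of the trifunctional protein that shortens long-chain acyl-CoA, had 8.74, 8.88 and 8.77 against 9.85, 9.42 and 9.33 (0.74, adjusted p = 0.0252), and its 9 fluid arrays all lay above the other 9. Both groups were free of overlap for these genes. Members that did not pass included Cpt2 (0.89, adjusted p = 0.06) and Cpt1a (0.22, adjusted p = 0.813), the carnitine palmitoyltransferases that bring fatty acids into mitochondria, and the receptor Ppara itself (0.49, adjusted p = 0.547). Of the single-array fits, Cyp4a1 passed in 6 of 6, Vnn1 in 2, Ehhadh and Hadhb in 1 each and Bdh1 in 0, and the number of members that rose ranged from 1 to 3, and was 1 without HAES replicate 1 or 2 or without bleeding replicate 3. The median of the list ranged from 0.45 to 0.70 over all alternatives.

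Further genes of peroxisomes and fat breakdown that rose lie outside the list and outside the naming rule, and were chosen after their values were seen. These were Pex11a (1.26, adjusted p = 0.0212), which shapes dividing peroxisomes, Cat (0.75, adjusted p = 0.0364), the catalase that destroys their hydrogen peroxide, Slc25a17 (0.70, adjusted p = 0.0444) and Pxmp2 (0.73, adjusted p = 0.0492), a carrier and a channel of the peroxisomal membrane, and Eci2 (0.66, adjusted p = 0.0395) and Hadh (0.81, adjusted p = 0.0282), enzymes of fatty acid breakdown. Catalase was bright in every rat, with 11.56, 10.88 and 11.15 in bleeding and 11.86, 11.90 and 12.07 in HAES rats. The HAES values lay closer together than the bleeding values. Each of these 6 calls was lost in 5 or 6 of the 6 single-array fits.

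Most genes that handle bile acids were higher as well. Of 19 members measured, 15 were higher and 4 lower, with a median difference of 0.46. Of these 2 rose and 0 fell, against 0.93% of all genes that rose. Nr1h4, the gene of the bile acid receptor FXR, stood at 8.06, 8.06 and 7.59 in bleeding rats and at 9.13, 8.94 and 9.15 in HAES rats, a difference of 1.17 ± 0.18 (SE, adjusted p = 0.00408). Every HAES rat lay above every bleeding rat by more than 0.8 log2 units, and the call held in all 6 single-array fits. Slco1b2, an uptake carrier of the blood-facing hepatocyte membrane, had 10.73, 10.78 and 10.68 against 11.50, 11.38 and 11.32 (0.67, adjusted p = 0.0353). Both groups were tight for this gene, yet the call was lost in all 6 single-array fits. Cyp7a1, the rate-limiting enzyme of bile acid synthesis, differed by 0.11 (adjusted p = 0.961), and Cyp8b1, which sets the share of cholic acid, by 1.49 without passing (adjusted p = 0.288).

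Enzymes that modify foreign compounds were higher in most cases but passed rarely. Among the cytochromes P450 and their regulators 18 of 22 were higher and 4 lower, with a median of 0.22. Of these Cyp2e1 alone rose, against 0.93% of all genes. Cyp2e1, which oxidises ethanol and acetone, went from 10.40, 10.48 and 10.38 in bleeding rats to 11.03, 11.51 and 11.26 in HAES rats (0.85, adjusted p = 0.028), and the call held in 1 of 6 single-array fits. Among conjugating enzymes 13 of 15 were higher and 2 lower, with a median of 0.30, and Papss2 alone rose (1.11, adjusted p = 0.0361, 2 of 6 fits), which makes the sulphate donor. The glucuronosyltransferases Ugt2b10 (1.21, adjusted p = 0.00736) and Ugt2a3 (1.18, adjusted p = 0.0168) rose outside this list and were chosen after their values were seen, and held in 5 and 3 of 6 fits. Aldh1a1, which turns retinal into retinoic acid, had 6.89, 7.78 and 5.93 in bleeding and 8.88, 8.77 and 8.63 in HAES rats (1.90, adjusted p = 0.0129, 5 of 6 fits). The bleeding rats were spread widely and the HAES rats tightly. Nat8f2, of the N-acetyltransferase 8 family, had 6.67, 6.90 and 5.88 against 8.18, 8.31 and 8.30 (1.78, adjusted p = 0.00759, 5 of 6 fits).

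Both subunits of glutamate-cysteine ligase, which carries out the first and limiting step of glutathione synthesis, rose. The modifier subunit Gclm stood at 8.52, 8.41 and 8.06 in bleeding rats and at 9.55, 9.31 and 9.59 in HAES rats (1.16, adjusted p = 0.007). The catalytic subunit Gclc stood at 7.99, 7.71 and 7.60 against 8.76, 8.77 and 8.69 (0.98, adjusted p = 0.00771). For both genes the groups were apart by more than 0.6 log2 units, and both calls held in 5 of 6 single-array fits and were lost without bleeding replicate 3. Mgst3, a microsomal glutathione transferase, rose by 1.18 (adjusted p = 0.0172, 2 of 6 fits) and was chosen after its values were seen. Of 18 redox genes driven by the transcription factor NRF2 these 2 subunits alone rose, against 0.93% of all genes, and 0 fell. Of the other 16 genes 4 were higher and 12 lower. The median of all 18 was −0.12, and −0.079 without HAES replicate 2. The promoter of Gclm is shown because it belongs to the more clearly raised subunit and carries the core of the antioxidant response element, TGACNNNGC, searched on both strands in the 250 bases before and 50 after each start site in RefSeq (GRCr8). The core is in capitals, read here on the opposite strand, 172 bases before the start, at chr2:213031885-213032184 (+).
Gclm: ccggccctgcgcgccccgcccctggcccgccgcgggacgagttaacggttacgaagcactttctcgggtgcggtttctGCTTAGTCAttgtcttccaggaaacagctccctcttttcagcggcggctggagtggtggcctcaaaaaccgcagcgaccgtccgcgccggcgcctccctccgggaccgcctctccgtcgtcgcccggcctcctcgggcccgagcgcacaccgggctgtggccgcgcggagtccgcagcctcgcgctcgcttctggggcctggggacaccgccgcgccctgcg
The core occurred in 6 of 16 windows of the list and in 12.2% of 27457 windows of all genes, which makes it a description of the letters only. Of the genes with the core, Gclm alone rose.

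Chaperones of the endoplasmic reticulum were mostly lower in HAES rats. Of 20 members measured, 19 were lower and 1 higher, 5 fell and 0 rose, with a median of −0.36, against 0.539% of all genes that fell. Hyou1, an Hsp70-like chaperone of the endoplasmic reticulum, stood at 8.63, 9.24 and 9.55 in bleeding rats and at 8.35, 7.44 and 7.89 in HAES rats, a difference of −1.25 ± 0.27 (SE, adjusted p = 0.0284). The first HAES rat and the first bleeding rat lay closest to each other. Creld2, a stress-induced protein of the same compartment, showed the same order of rats with 7.72, 8.66 and 8.81 against 7.57, 6.68 and 6.73 (−1.41, adjusted p = 0.04). Manf, a stress-induced and partly secreted protein, had 8.87, 9.25 and 9.30 against 8.48, 7.92 and 8.32 (−0.90, adjusted p = 0.0275).

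Dnajb11, which hands unfolded chains to the chaperone BiP, had 8.76, 9.04 and 9.35 in bleeding rats and 8.56, 7.80 and 8.15 in HAES rats (−0.88, adjusted p = 0.0377). Edem1, which leads misfolded glycoproteins to breakdown, had 10.12, 9.72 and 10.20 against 9.13, 8.90 and 9.33 (−0.89, adjusted p = 0.049). BiP itself, the gene Hspa5, was measured at 10.71, 10.98 and 10.97 against 10.63, 10.24 and 10.71 and did not pass (−0.37, adjusted p = 0.316). The same held for Xbp1, a transcription factor of the unfolded protein response, whose difference was close to nothing (adjusted p = 0.996). Outside the list and chosen after their values were seen, P4hb, a disulphide isomerase (−0.55, adjusted p = 0.049), Syvn1, a ubiquitin ligase that clears misfolded proteins (−0.76, adjusted p = 0.049), and Ficd, which modifies BiP (−0.88, adjusted p = 0.0295), fell.

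The calls on chaperones were lost when any 1 of 4 arrays was left out, while Manf, for example, differed by −1.04 to −0.74 over the fits that each left out 1 array. Hyou1, Creld2, Manf and Dnajb11 still fell without HAES replicate 1, where Derl3 passed as well and Edem1 did not, and the same 4 genes fell without bleeding replicate 1. Without any 1 of the other 4 arrays 0 members passed, and in a fit of the HAES and bleeding arrays alone 0 passed. Hyou1, Creld2, Manf, Dnajb11 and Ficd each held in 2 of the 6 single-array fits, and Edem1, P4hb and Syvn1 in 0. The median of the list stayed between −0.50 and −0.28 in every alternative.

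The promoters of Creld2 and Hyou1, as members that fell, and of Hspa5, as 1 of the 15 that did not pass, are shown to compare the elements through which the unfolded protein response is known to act. The endoplasmic reticulum stress element, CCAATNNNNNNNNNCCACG, is in capitals for Creld2 (chr7:121789134-121789433, +, 145 bases before the start, opposite strand) and Hspa5 (chr3:38452766-38453065, +, 43 bases before the start, same strand). For Hyou1 (chr8:53602632-53602931, +) the capitals mark TGACGTG, 191 bases before the start. Coordinates and sequences are those of RefSeq on GRCr8.
Creld2: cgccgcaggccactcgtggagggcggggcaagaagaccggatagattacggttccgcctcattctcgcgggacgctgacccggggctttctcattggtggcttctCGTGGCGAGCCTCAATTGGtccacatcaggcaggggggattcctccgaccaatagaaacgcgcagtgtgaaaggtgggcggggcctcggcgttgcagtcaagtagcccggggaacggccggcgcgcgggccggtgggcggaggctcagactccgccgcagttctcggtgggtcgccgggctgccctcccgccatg
Hspa5: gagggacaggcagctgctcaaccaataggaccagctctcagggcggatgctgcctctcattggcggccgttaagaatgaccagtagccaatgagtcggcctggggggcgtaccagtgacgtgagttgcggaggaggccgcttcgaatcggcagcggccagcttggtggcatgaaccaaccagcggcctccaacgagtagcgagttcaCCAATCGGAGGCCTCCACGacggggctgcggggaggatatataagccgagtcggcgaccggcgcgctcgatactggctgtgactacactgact
Hyou1: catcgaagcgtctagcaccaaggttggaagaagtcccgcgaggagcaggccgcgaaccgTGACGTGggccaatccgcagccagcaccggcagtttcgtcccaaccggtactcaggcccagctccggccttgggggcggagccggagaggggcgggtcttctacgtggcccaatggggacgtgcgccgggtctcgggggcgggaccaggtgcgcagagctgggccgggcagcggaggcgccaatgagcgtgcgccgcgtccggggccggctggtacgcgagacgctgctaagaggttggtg
Both motifs were searched on both strands in windows of 300 bases. The endoplasmic reticulum stress element occurred in 8 of the 17 windows that matched the 20 members and in 0.0765% of all 27457 windows. Among the members that fell, 1 of 4 windows held it, and among the other members 7 of 13, so members with and without this element fell. TGACGTG occurred in 2 of the 17 windows, those of Hspa5 and Hyou1, and in 1.88% of all windows.

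Heme oxygenase was lower in HAES rats. Hmox1, which breaks heme down to biliverdin, iron and carbon monoxide and is induced by heme and oxidative stress, stood at 8.28, 7.83 and 7.15 in bleeding rats and at 5.73, 6.26 and 5.92 in HAES rats. All HAES arrays lay at least 0.8 log2 units below the lowest bleeding array, and the difference was −1.78 ± 0.39 (SE, adjusted p = 0.0303), with a call that held in 1 of 6 single-array fits. Slc40a1, the iron exporter ferroportin of hepatocytes and Kupffer cells, moved the other way, from 7.80, 7.57 and 7.20 to 8.37, 8.20 and 8.91 (0.97, adjusted p = 0.0421, 0 of 6 fits). The other 21 of 23 genes of heme, iron and hemoglobin clearance did not pass.

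Of 18 inflammatory cytokines, adhesion molecules and their regulators 10 were lower and 8 higher, none passed, and the median was −0.05, which became 0.016 without bleeding replicate 1. Single genes linked to inflammation that lie outside that list did fall. Bcl3, a nuclear partner of NF-κB, had 6.95, 6.92 and 7.13 in bleeding rats and 5.14, 5.31 and 5.78 in HAES rats (−1.59, adjusted p = 0.0078, 5 of 6 fits). Its groups were more than 1 log2 unit apart. Sbno2, a transcriptional coregulator, fell by 0.83 on the log2 scale (adjusted p = 0.0079, 5 of 6 fits) and was chosen after its values were seen. Sod2, the mitochondrial superoxide dismutase and an NF-κB target, fell by 1.04 (adjusted p = 0.0471, 1 of 6 fits). Cxcl1, a neutrophil-attracting chemokine, had the largest difference in its list, yet did not pass (−2.67, adjusted p = 0.0673). It had 8.12, 8.38 and 8.24 in bleeding rats and 4.58, 5.61 and 6.53 in the widely spread HAES rats. In a fit of the HAES and bleeding arrays alone Cxcl1 passed (adjusted p = 0.0386). It also passed with array weights and without the probe sets below the median level, but in 0 of 6 single-array fits. Stat3 was also short of the threshold (−0.65, adjusted p = 0.139).

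Of 26 acute phase proteins, 22 were lower and 4 higher, with a median of −0.15 (−0.26 without HAES replicate 3). S100a9, a calcium-binding protein of neutrophils and monocytes, alone fell, from 7.30, 6.38 and 5.93 to 5.27, 5.58 and 5.30 (−1.15, adjusted p = 0.0489, 1 of 6 fits). Of 27 chemokines and receptors 19 were lower and 8 higher, with a median of −0.13 that ran from −0.26 without HAES replicate 3 to −0.019 without HAES replicate 1, and the eosinophil chemoattractant Ccl24 alone fell (−1.74, adjusted p = 0.0389, 1 of 6 fits). Vcan, the matrix proteoglycan versican, which monocytes also make, fell from 7.79, 6.32 and 5.54 to 4.53, 4.42 and 4.45 (−2.09, adjusted p = 0.0312, 1 of 6 fits). The bleeding rats spanned more than 2 log2 units, while the HAES rats were uniformly low.

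Markers of neutrophils and of monocytes were mostly lower, while 11 of 21 markers of T and NK cells (median −0.01) and 7 of 14 of B and plasma cells (median 0.0026) were lower and none of them passed. Of 16 neutrophil markers 13 were lower and 3 higher, with a median of −0.37, and S100a9 alone fell, against 0.539% of all genes. Their summed intensity was 1261 to 2063 in HAES and 1773 to 2696 in bleeding rats, and most of it came from Lcn2, which hepatocytes also make (10.34 in HAES and 10.85 in bleeding rats). The granule genes Mpo and Elane stood at mean levels of 4.88 and 4.83 in bleeding rats and 4.94 and 4.87 in HAES rats, near the dim end of the array. Of 16 markers of recruited macrophages and monocytes 11 were lower and 5 higher, with a median of −0.25 (−0.42 without bleeding replicate 3 and −0.14 without bleeding replicate 1), Vcan alone fell, and their summed intensity was 1856 to 2576 in HAES and 2471 to 3199 in bleeding rats. The array gives a value to every probe set, so no marker was at 0. Kupffer cell markers, which overlap with the iron genes in Slc40a1, had a median of 0.08 (−0.0064 without bleeding replicate 3) and summed to 3332 to 3650 in HAES and 2208 to 3509 in bleeding rats. The part of cell content in these differences was not tested.

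Single genes of ribosomal proteins are given next, without a count over all such genes, for which no list was described. Rplp0, a protein of the ribosomal stalk, had 7.23, 7.26 and 7.87 in bleeding rats and 5.09, 6.51 and 4.99 in HAES rats (−1.92, adjusted p = 0.00578, 6 of 6 fits). The second HAES rat stood well above the other two HAES rats. Rps19l3 (−1.22, adjusted p = 0.0043, 6 of 6 fits) and Rpl12l2 (−1.20, adjusted p = 0.0269, 2 of 6 fits), named as ribosomal protein copies, fell too. Chosen after their values were seen, Rps2 (−0.63, adjusted p = 0.0304), Rpl7a (−0.71, adjusted p = 0.0438), the elongation factor subunit Eef1g (−0.71, adjusted p = 0.047) and spermidine synthase Srm (−0.78, adjusted p = 0.0478) also fell, and held in 1, 0, 0 and 0 of 6 fits. Ribosomal protein genes have many near-identical copies in the genome, so which copy a probe set measured is uncertain. Of 22 genes of ribosome making, such as nucleolar factors, 16 were lower and 6 higher and none passed (median −0.19, from −0.28 without bleeding replicate 2 to −0.10 without bleeding replicate 1).

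Cell cycle genes were mostly higher in HAES than in bleeding rats. Of 37 genes of mitosis and the spindle 31 were higher and 6 lower. Of these 2 rose, against 0.93% of all genes, and 0 fell. The median was 0.40, ranged from 0.16 to 0.67 over the alternatives and was 0.25 without HAES replicate 2. Top2a, the topoisomerase that untangles chromosomes, stood at 4.91, 5.39 and 4.63 in bleeding rats and at 6.11, 7.00 and 6.07 in HAES rats (1.42, adjusted p = 0.0322, 2 of 6 fits). The groups did not overlap, and the second rat of each group was the highest. Bub1, a spindle checkpoint kinase, rose by 0.80 (adjusted p = 0.0317, 1 of 6 fits), and the proliferation marker Mki67 did not pass (1.37, adjusted p = 0.0742). Without HAES replicate 1, 6 members rose, and without bleeding replicate 2, 1 did, while without any 1 of the other 4 arrays 0 passed. Of 32 genes of DNA replication and nucleotide supply 21 were higher and 11 lower, none passed, and their median was 0.10 (0.041 without bleeding replicate 3).

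Cholesterol synthesis leaned the other way. Of 18 members 15 were lower and 3 higher, with a median of −0.45 which was −0.83 without HAES replicate 3 and −0.24 without HAES replicate 2. Fdps, which makes farnesyl diphosphate, alone fell, from 9.14, 9.60 and 9.38 to 7.97, 7.28 and 8.87 (−1.34, adjusted p = 0.0236, 2 of 6 fits). Insig1, the sterol sensor that holds back cholesterol synthesis, differed by −1.42 without passing (adjusted p = 0.142), and the third HAES rat had 8.63 against 7.76 and 6.73 in the other HAES rats. For both genes that rat lay nearest to the bleeding rats.

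**Figure D3:**
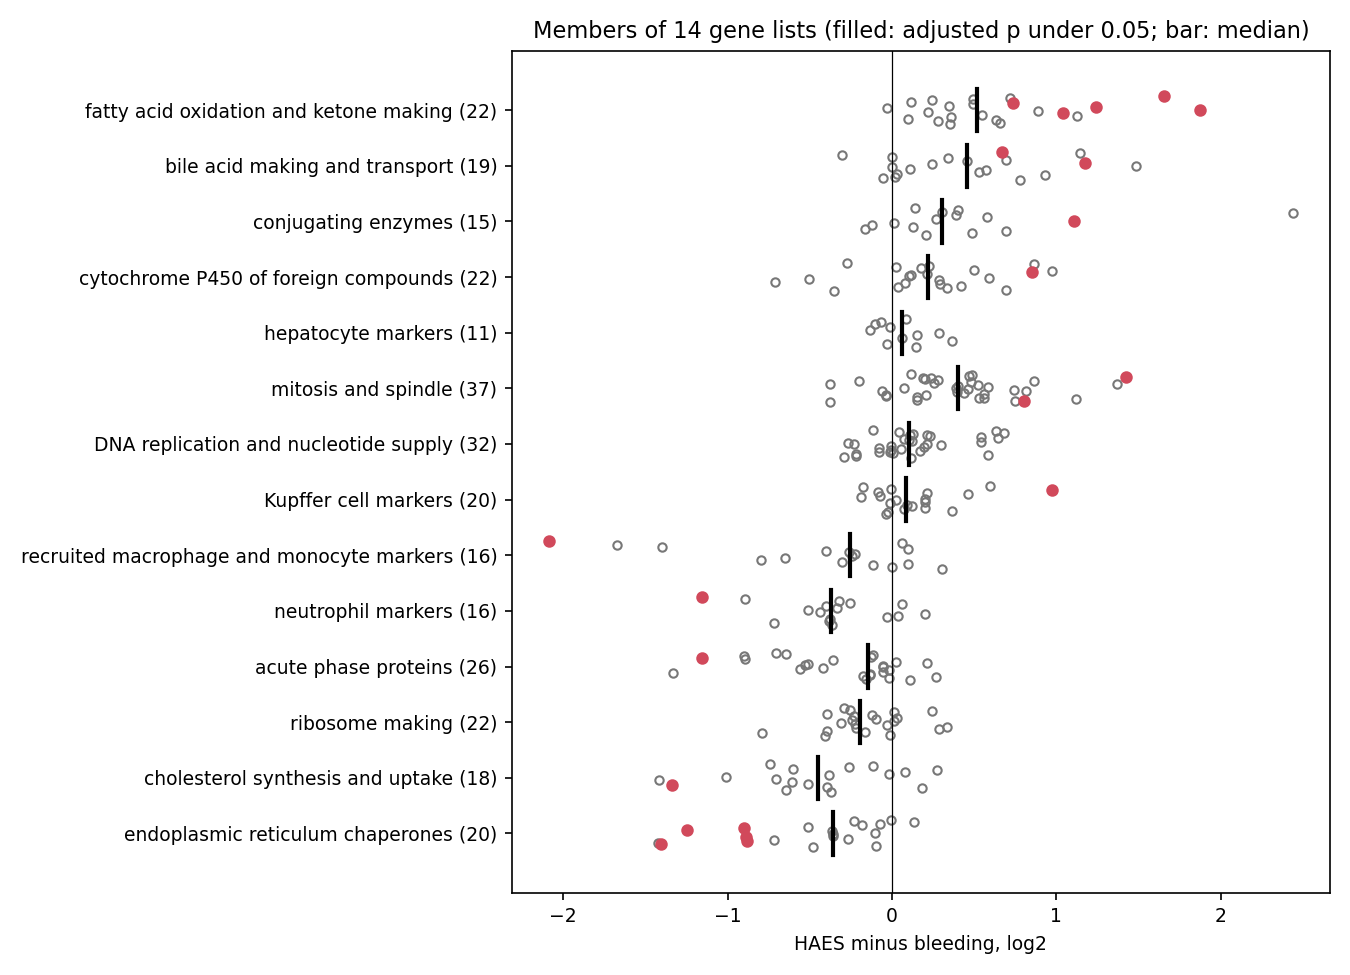
Difference between HAES and bleeding rats (log2, horizontal) for each measured member of 14 gene lists, with open points for members that did not pass, filled points for an adjusted p under 0.05 and a bar at the median. The median is 0.52 for fatty acid oxidation, 0.46 for bile acid genes, −0.36 for chaperones of the endoplasmic reticulum and −0.45 for cholesterol synthesis.

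Among 44 lists described in this way, 23 medians kept their sign in every alternative and 21 changed it in at least 1. Urea cycle and amino acid genes had a median of 0.20 (0.012 without HAES replicate 3 and 0.32 without HAES replicate 1), with Cth, which makes cysteine, higher by 0.75 (adjusted p = 0.0371, 0 of 6 fits). In sugar metabolism Ugp2, which makes the UDP-glucose used for glycogen, rose by 0.81 (adjusted p = 0.0389, 1 of 6 fits), in a list whose median was 0.08 (0.043 without bleeding replicate 2 and 0.15 without HAES replicate 1). The list of starch and glycogen cutting and sugar handling had a median of 0.04 (−0.073 without HAES replicate 3 and 0.15 without HAES replicate 2), and 0 of 12 members passed. Of 26 genes of lysosomes and autophagy the membrane protein Lamp2 alone rose (0.55, adjusted p = 0.0212, 2 of 6 fits). Osmotic and water balance genes had a median of 0.23 (0.089 without HAES replicate 3) and oxygen shortage genes one of −0.07 (0.044 without HAES replicate 1), with 0 of 15 and 0 of 22 past the threshold. The interferon-stimulated gene Ifit2 rose by 1.41 (adjusted p = 0.019, 2 of 6 fits), the clock-related repressor Nfil3 fell by 0.79 (adjusted p = 0.039, 1 of 6 fits), and Lect2, a hepatocyte cytokine under Wnt control, rose by 0.75 (adjusted p = 0.0412, 0 of 6 fits). Of the 16 genes that the study itself examined and that were measured here, 11 were lower and 5 higher, and Hmox1 alone passed.

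Other genes with large differences belonged to no list. Among those that rose, Fzd4, a Wnt receptor, had 5.93, 5.11 and 5.51 in bleeding and 7.46, 7.47 and 7.54 in HAES rats (1.97, adjusted p = 0.0367, 0 of 6 fits). Ifgga2l1 (1.83, 2 of 6 fits), Sntb1 (1.64, 5 of 6), Tmem47 (1.59, 1 of 6), Albfm1 (1.43, 5 of 6), Zfp972 (1.42, 5 of 6), Sowahb (1.34, 0 of 6) and the mitochondrial carrier Slc25a30 (1.33, 2 of 6) rose with adjusted p between 0.00801 and 0.0429. Fahd1, a mitochondrial enzyme that removes carbon dioxide from oxaloacetate, rose from 6.54, 6.54 and 6.42 to 7.64, 7.35 and 7.47 (0.98, adjusted p = 0.0257, 0 of 6 fits). Ppif, the cyclophilin of the mitochondrial permeability pore, rose by 1.08 (adjusted p = 0.00656, 6 of 6 fits) and was chosen after its values were seen.

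Among those that fell, Fis1, an outer membrane protein of mitochondria linked to their division, had 8.18, 8.29 and 7.93 in bleeding and 6.76, 6.30 and 6.22 in HAES rats (−1.71, adjusted p = 0.00396, 6 of 6 fits). It stood more than 1 log2 unit lower in every HAES rat. Entpd7, which splits nucleotides inside vesicles, fell from 6.04, 6.47 and 6.52 to 4.78, 4.72 and 5.0 (−1.51, adjusted p = 0.00408, 6 of 6 fits). Lurap1l (−1.68, 1 of 6 fits), Asb16 (−1.45, 6 of 6) and C10h17orf49 (−1.36, 3 of 6) fell with adjusted p between 0.0078 and 0.0287. Fis1, Ppif and Entpd7 were among the genes for which all 9 fluid arrays lay on 1 side of the other 9. The same held for Hadhb, Slc25a17, Ugt2b10, Tmem47 and Albfm1 described above. Or8h7b, of the olfactory receptor family and outside the naming rule, was also among them. It had the largest difference of all named probe sets, with 5.11, 5.41 and 4.66 in bleeding and 7.14, 9.27 and 11.04 in HAES rats (4.09, adjusted p = 0.00408, 6 of 6 fits). The HAES rats differed from one another by almost 4 log2 units in this gene.

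Against PHx rats that were not bled, HAES rats had less signal for several macrophage and stellate cell genes and more for some drug-metabolising enzymes. There were 836 of 36685 probe sets past the threshold (2.28%), 443 higher and 393 lower, which is 53.0% higher (41.2% with arrays centred on their medians), and per gene 80 of 18166 rose (0.44%) and 230 fell (1.27%). With HAES replicate 1, 2 or 3 left out the count became 920, 431 and 394, and with PHx replicate 1, 2 or 3 left out 407, 687 and 298. Spp1, the matrix protein osteopontin, stood at 8.47, 5.80 and 9.20 in PHx rats and at 4.56, 4.45 and 4.38 in HAES rats (−3.36, adjusted p = 0.00834). Mmp12, the macrophage elastase, had 7.95, 7.23 and 9.42 against 4.94, 4.72 and 5.29 (−3.22, adjusted p = 0.0031), and the macrophage glycoprotein gene Gpnmb 9.32, 7.46 and 9.35 against 5.91, 6.05 and 5.76 (−2.80, adjusted p = 0.00952). In all 3 genes the second PHx rat was the lowest of its group. That it lay above every HAES rat was fixed by the naming rule, which takes only genes without overlap.

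Tagln, an actin-binding protein of contractile cells, fell by 2.65 against PHx rats (adjusted p = 0.00555), and the cytochrome P450 Cyp2c55 by 2.52 (adjusted p = 0.0474). Of 16 markers of recruited macrophages and monocytes 4 fell (median −0.69), of 16 neutrophil markers 3 fell (median −0.30), and of 19 markers of stellate cells and fibroblasts 3 fell (median −0.51), against 1.27% of all genes. In bleeding rats against PHx rats the medians of these lists were −0.46, −0.04 and −0.69 in the same order. Between those 2 groups 0 of 36685 probe sets passed. Against bleeding rats Spp1 did not pass (−1.67, adjusted p = 0.19), and the bleeding rats had 6.56, 6.83 and 5.02. Of the genes that rose against PHx rats, Hsd17b2, which inactivates estradiol and testosterone, had 6.37, 6.66 and 6.51 in PHx and 8.35, 9.33 and 9.71 in HAES rats (2.61, adjusted p = 0.0106), while 2 of the bleeding rats lay close to the HAES rats at 8.03 and 8.91. Nat8f2 (2.48, adjusted p = 0.00163), the cytochromes P450 Cyp2b1 (2.46, adjusted p = 0.0474) and Cyp3a9 (2.21, adjusted p = 0.0376) and the glutathione transferase Gstp3 (2.12, adjusted p = 0.0295) rose too. Of the 22 cytochromes P450 and their regulators in the list, 5 rose and 0 fell against PHx rats (median 0.43), against 0.44% of all genes that rose. Cyp2c55, which fell, is not among these 22.

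Several of the genes described above differed from PHx rats in the same direction as from bleeding rats, with the HAES arrays shared by both comparisons. Hmox1 fell by 2.20 on the log2 scale (adjusted p = 0.00834), Edem1 fell by 1.26 (adjusted p = 0.00714) and Manf by 0.80 (adjusted p = 0.0389), whereas Cyp2e1 rose by 1.30 (adjusted p = 0.00271), Gclm by 1.09 (adjusted p = 0.00834) and Slco1b2 by 0.89 (adjusted p = 0.0062). Cyp4a1 (0.99, adjusted p = 0.0738) and Hyou1 (−0.97, adjusted p = 0.0728) did not pass against PHx rats. Of the genes named here that passed against PHx rats, Nat8f2, Spp1, Mmp12, Tagln, Cyp2e1, Gclm, Edem1, Hmox1 and Slco1b2 still passed with any 1 of the 6 arrays left out, Hsd17b2 in 5 and Gpnmb in 4 of 6 such fits, Cyp2b1 and Gstp3 in 2, and Cyp3a9, Cyp2c55 and Manf in 1. In a fit of the HAES and PHx arrays alone Spp1, Cyp2b1, Gstp3, Cyp2c55 and Manf did not pass, while the others did.

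The starch and the red cells were compared directly, since differences of each from the bleeding rats share the bleeding arrays. Between HAES and F-RBC rats 0 of 36685 probe sets passed (0%) by limma, with 4257 at an unadjusted p under 0.05 and 0 by the t-test after adjustment. The count became 82 without HAES replicate 1, 16 without HAES replicate 2, 1 without F-RBC replicate 1 and 5 without F-RBC replicate 3. Between HAES and S-RBC rats 2 passed (0.00545%), neither with a single gene symbol, with 4137 at an unadjusted p under 0.05. Without HAES replicate 1, 2 or 3 this count became 24, 21 and 0, and without S-RBC replicate 1, 2 or 3 it became 3, 8 and 19. A missed threshold with 3 rats per group does not show that starch and red cells acted alike.

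Side by side against the same bleeding rats, fatty acid oxidation genes had a median of 0.52 in HAES, 0.52 in F-RBC and 0.34 in S-RBC rats. Cyp4a1 differed from bleeding rats by 1.87, 1.89 and 1.58 in the same order, Fmo1 by 2.22, 1.86 and 1.29, and Ehhadh by 1.24, 1.30 and 0.41. For chaperones of the endoplasmic reticulum the medians were −0.36, −0.01 and 0.15, and in the direct contrasts −0.44 against F-RBC and −0.68 against S-RBC rats. Hyou1 stood at 8.35, 7.44 and 7.89 in HAES, at 9.37, 9.27 and 8.98 in F-RBC and at 9.56, 8.63 and 9.08 in S-RBC rats, so every HAES rat was below every red cell rat. Its direct differences were −1.32 ± 0.27 against F-RBC (SE, adjusted p = 0.121) and −1.20 ± 0.27 against S-RBC rats (adjusted p = 0.158), neither past the threshold. Manf differed by −0.87 and −1.05 (adjusted p = 0.131 and 0.104), Edem1 by −0.997 and −1.09 (adjusted p = 0.128 and 0.125), and Creld2 by −1.83 from S-RBC rats (adjusted p = 0.104). Of 6 single-array fits each, Hyou1 passed in 1 against F-RBC rats and in 0 against S-RBC rats. Creld2 passed in 2 against S-RBC rats, and Manf and Edem1 in 0 against either group.

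**Figure D4:**
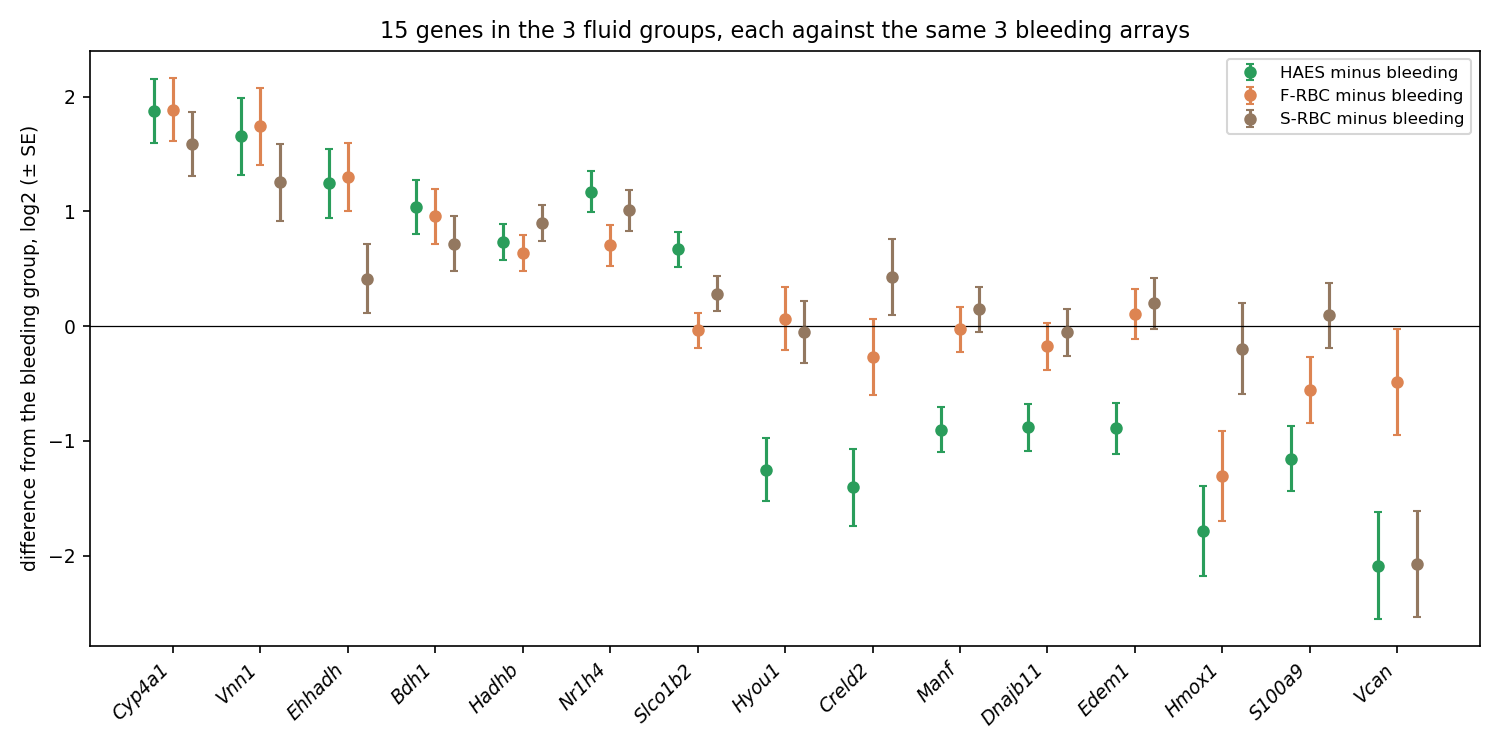
Difference of the HAES, F-RBC and S-RBC groups from the same bleeding rats (log2, vertical, with SE) for 15 genes. Cyp4a1 lies between 1.58 and 1.89 in all 3 fluid groups, while Hyou1 lies at −1.25 in HAES, 0.07 in F-RBC and −0.05 in S-RBC rats.

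Hmox1 differed from bleeding rats by −1.78 in HAES, −1.31 in F-RBC and −0.20 in S-RBC rats. Its levels in S-RBC rats were 7.92, 7.05 and 7.71, above every HAES rat, and the direct difference of HAES from S-RBC rats was −1.59 ± 0.39 (SE, adjusted p = 0.176), with one of −0.47 from F-RBC rats (adjusted p = 0.686). Mitosis genes had medians of 0.40, 0.99 and 0.17 against bleeding rats, and Mki67 stood at 7.25, 7.71 and 7.60 in F-RBC rats against 5.67, 7.09 and 6.11 in HAES rats, a direct difference of −1.23 (adjusted p = 0.246). The lowest F-RBC rat thus lay just above the highest HAES rat. Bile acid genes had medians of 0.46, 0.18 and 0.22, and Slco1b2 differed from bleeding rats by 0.67, −0.04 and 0.28, with a direct difference of 0.70 from F-RBC rats (adjusted p = 0.128). Cholesterol genes had medians of −0.45, −0.75 and 0.06.

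Among the genes that the naming rule gives for these direct contrasts, none passed in the fit of all arrays. Ass1, a urea cycle enzyme, had the smallest adjusted p of HAES against F-RBC rats, with 9.60, 9.74 and 10.01 against 10.98, 10.71 and 10.83 (−1.06, adjusted p = 0.0809), and Mcm5, part of the replication helicase, had 5.41, 5.17 and 5.08 against 6.26, 6.65 and 6.22 (−1.16, adjusted p = 0.0829). The naming rule takes only genes without overlap of arrays between the groups compared, so the lack of overlap for both genes was fixed in advance. Cyp3a9 was higher in HAES than in F-RBC rats by 2.48 (adjusted p = 0.126). Against S-RBC rats Cdkn1a, the cell cycle inhibitor p21, had 5.63, 6.02 and 6.13 against 8.15, 8.18 and 6.83 (−1.79, adjusted p = 0.104), Sod2 differed by −1.43, Hsd17b2 by 2.65 and Nat8f2 by 1.62 (adjusted p = 0.104 each), and Fahd1 by 1.07 (adjusted p = 0.112). That every HAES rat lay below every S-RBC rat for Cdkn1a was likewise fixed by the rule. Of 6 single-array fits each, Ass1 and Mcm5 passed in 1, without HAES replicate 1. Sod2 passed in 2, Cdkn1a and Nat8f2 in 1, and Cyp3a9, Hsd17b2 and Fahd1 in 0.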

How the data were processed

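Liver RNA of 18 rats was hybridised to GeneChip Rat Gene 2.0 ST arrays, 3 per group in 6 groups taken from the sample labels. The authors deposited 1 linear intensity per probe set and array. Affymetrix Power Tools and PLIER are listed in the submitters' processing notes, while RMA stands beside PLIER in the methods. For versions and genome build: not given in the sources used here. Array medians differed, so the deposited intensity values had not been forced to 1 distribution, and scaling can move small differences. No column per sample was left unused.

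Values were taken as log2(intensity + 16). Low genes are understated on this scale. Group means were fitted over all 18 arrays with limma 3.58.1 (R 4.3.3; variance trend, 12 residual degrees of freedom), with Benjamini-Hochberg adjustment over 36685 probe sets and 0.05 as threshold. The brightest of several probe sets stands for a gene (18166 genes). Symbols are those of the array annotation. The fitting code was tested on simulated data. Replicate numbers did not pair the rats (correlations of deviations between −0.067 and −0.039 for equal numbers).

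The groups compared and the 44 gene lists (845 of 966 entries matched) were chosen with earlier results of these data known. Genes are named by a rule: the 15 largest changes each way past the threshold without overlap of arrays between HAES and bleeding rats, 5 each way for the other comparisons (the smallest p where none passed), up to 4 members of each list with the smallest p and the first 2 of each list, and the study's own genes. Predicted genes and large receptor families were skipped. Not every gene so chosen is printed, and those outside the rule are stated. Lists are described by counts and medians, with no test of the list. Alternatives were quantile normalization, median centring, other offsets, a filter on dim probe sets, other variance models, the methods' t-test, a replicate block and leaving out each array. Promoter windows come from RefSeq (GRCr8). Figures were made with Python 3.11.15, pandas 2.3.3 and matplotlib 3.10.9.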

Additional observations from a re-analysis of the deposited data

Results flagged for a closer look

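The 2 probe sets that passed between HAES and S-RBC rats were marked because a direct test of the fluids against each other, both of which share the bleeding rats as reference, found a difference. Neither has a single gene symbol. Probe set 17633198 differed by −1.41 (HAES minus S-RBC, log2, adjusted p = 0.0391), with 11.41, 10.51 and 10.85 in HAES and 12.52, 12.01 and 12.48 in S-RBC rats. Its mean level was 12.31 in bleeding, 12.22 in PHx, 11.76 in F-RBC and 8.72 in naive rats. Probe set 17796044 differed by −0.84 (adjusted p = 0.0391), with 4.68, 4.61 and 4.54 in HAES and 5.35, 5.48 and 5.51 in S-RBC rats, near the dim end of the array, and means between 4.81 and 5.03 in the other groups.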

How the results depend on the processing

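Between HAES and bleeding rats 663 probe sets passed, against 1226 after quantile normalization, 1225 with array weights, 338 in a fit of only the groups compared, 282 without the probe sets that part the fluid arrays, 1 by the methods' t-test after Benjamini-Hochberg (4987 unadjusted) and 119 to 640 with 1 array left out. All 663 kept their sign wherever they were tested. Where the values were not rescaled, the lack of overlap fixed this in advance for all but 1 of them. Of the 663, 655 were also called after quantile normalization, 236 in the fit of only the groups compared. Against PHx rats the 836 became 216 in the fit of only the groups compared, 529 without the probe sets that part the fluid arrays, 0 by the t-test after adjustment (4323 unadjusted) and 298 to 920 with 1 array left out. Without the probe sets below the median level 37.7% of the calls against PHx rats were higher, against 53.0%. Against F-RBC rats the 0 became 27 without the probe sets below the median level, 3266 by the unadjusted t-test and 0 to 82 with 1 array left out. Against S-RBC rats the 2 became 1 with median centring, without the probe sets below the median level, without the variance trend and with the replicate block, 0 with an offset of 1, with array weights, in the fit of only the groups compared and by the adjusted t-test, 2048 by the unadjusted t-test and 0 to 24 with 1 array left out. With the replicate block, which rests on numbers that did not pair the rats, 466, 721, 0 and 1 probe sets passed in the 4 comparisons, and 444 of the 663 were among the 466. Of the 71 named genes past the threshold against bleeding rats, 8 passed in every alternative that tested them. The cause of these shifts was not tested. With 3 arrays per group, the number of arrays limits the precision.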
